A study of Mus musculus with 12 samples.

Results

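The cytosolic ribosomal protein genes encode the protein part of the ribosome that translates nuclear mRNA. They were taken as every row of the deposited table whose symbol, in upper case, is RPL or RPS, with or without a P, followed by a number and at most 1 of the letters A, X, L and Y. This gave 80 of 24197 rows, 49 of the large subunit (Rpl) and 31 of the small subunit (Rps). RNA came from E0771 tumors, a mouse mammary carcinoma line implanted in a fat pad of the mammary gland in C57/BL6N females. Mice received PBS vehicle, or cyclophosphamide (CPA), an alkylating drug activated in the liver, at 130 mg/kg (the dose in the labels, while the study also treated E0771 tumors at lower doses) on day 0, with tumors taken on day 1, 2, 3 or 6. Tumors of day 12 came from mice given CPA on day 0 and again on day 6, so they followed 2 cycles. Each of the 6 groups had 2 libraries of polyA RNA, and each library was a pool of tumors. Mice of the vehicle and day 1 to 3 groups were 9 to 10 weeks old, those of day 6 were 11 weeks and those of day 12 were 12 weeks, so age and time after CPA cannot be told apart on the later days. The labels of 1 day 1 library conflict, with a title that gives CPA and a treatment entry that gives vehicle, and it was kept under its title.

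A ribosome holds nearly every one of these proteins in a single copy, and cells make them in matched amounts. Their mRNAs begin with a run of pyrimidines, the terminal oligopyrimidine (TOP) motif, through which mTOR signaling sets their translation, and growing cells devote a large part of their mRNA to them. A few members are paralogs with restricted expression, such as Rpl3l in muscle and Rpl10l in testis. In tumors, ribosome production follows growth, and free ribosomal proteins such as Rpl5 and Rpl11 can bind Mdm2, the ligase that limits p53.

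The start sites of 8 members that the results below turn on are shown first, from RefSeq (GRCm38.p6), each as 30 bases from 10 before to 20 from the annotated start onward. Capitals mark a run of at least 5 C and T that opens with C within 5 bases of that start, counted from the C nearest to it, so that C and T just before the capitals may extend the run. The first 3 genes lie above the rest of the family on day 12, the next 3 lie below it, and the last 2 are a parent gene and its paralog. Rps27l has 2 listed promoters, and the other is not shown.
Rpl37a: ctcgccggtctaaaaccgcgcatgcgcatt
Rpl39: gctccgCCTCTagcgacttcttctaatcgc
Rps9: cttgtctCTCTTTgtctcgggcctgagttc
Rpl31: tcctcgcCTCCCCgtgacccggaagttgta
Rps7: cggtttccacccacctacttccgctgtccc
Rpl10: tacagtggaagataggccgcctatataagg
Rps27: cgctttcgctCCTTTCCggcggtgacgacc
Rps27l: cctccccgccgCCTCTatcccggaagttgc
Such a run was present in 42.3% of the 71 promoters of the 59 members that matched the RefSeq table, against 18.3% of all 32851 promoters. CCGGAAG, the site letters of ETS factors, was found on either strand within 250 bases before to 50 after the start in 35.2% of member promoters and 8.86% of all promoters, and the YY1 letters AAGATGGC in 9.86% and 2.75%. The start windows of Rpl31 and Rps27l both hold ccggaag. A match is a description of letters and not of binding.

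The deposited values are FPKM, that is fragments per length of gene and per total of the library, 1 per group. Because each group value is the mean of 2 libraries and the 6 groups share the gene's length, the whole reads of each library could be worked out for 20176 of the 20186 rows above 0, among them all 79 members above 0. Which library is which pool is not known, so the libraries of a group are named by their total, larger or smaller. Reads on genes ran from 8395204 in the smaller day 12 library to 21017505 in the smaller vehicle library, and the members took 7.71% to 13.1% of them. Expression was compared on log2(FPKM + 0.1) with limma over the 10646 genes with a mean of at least 1 FPKM, 77 of them members, and p-values were adjusted by Benjamini-Hochberg over all 10646. They measure the spread between pools alone. An exact permutation test of 2 against 2 libraries cannot go below p = 0.333, so none is given.

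The members were among the most abundant mRNAs of the tumors. In vehicle, 59 of the 100 genes with the highest FPKM were members and 75 of the 80 members were at 100 FPKM or more. Their median in the authors' vehicle mean was 772 FPKM, with quartiles of 501 and 1129, against 6.50 FPKM over all genes past the filter. The highest in the authors' vehicle means were Rpl13 at 2280, Rpl41 at 2262, Rps12 at 2157, Rps2 at 2028 and Rplp1 at 2011 FPKM. Rpl13 was at 1898 FPKM in the larger and 2661 FPKM in the smaller vehicle library, and the ranges of all 5 overlapped, so their order is not set by these data. At the other end was the pseudogene Rps4l at 0.71 FPKM, and above it came Rps15a at 93.8 FPKM, the paralog Rps27l at 101 FPKM and Rpl22 at 106 FPKM. The 3 members that did not pass the filter were paralogs, Rpl3l at 0.056 and Rpl39l at 0.028 FPKM in the authors' vehicle mean, and Rpl10l, which was listed at 0 in all groups. The members are short, with a median length of 689 bases against 2697 over all genes past the filter, and lie on 19 chromosomes.

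Summed over the family, the share of FPKM was lowest on days 6 and 12. The larger and smaller vehicle library had 22.7% and 26.05%, those of day 1 21.04% and 22.3%, those of day 2 21.9% and 28.3%, and those of day 3 22.3% and 23.4%. By day 6 the shares were 19.7% and 18.9%, and by day 12 they were 18.2% and 18.9%. Every library of days 6 and 12 lay below all 8 others. Without the 100 highest other genes it did not hold, since the smaller day 12 library, at 25.9%, was above the larger day 1 library, at 25.6%. The libraries of a group differed by up to 6.39 percentage points, on day 2, and by 3.298 points in vehicle. In a bulk tumor, a smaller share of cells rich in these mRNAs and less of these mRNAs per cell cannot be told apart.

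Measured gene by gene, most members were lower than vehicle on days 1, 6 and 12. Over the 77 members, day 1 had a median log2 ratio of -0.23, day 2 one of 0.06 and day 3 one of -0.05. By day 6 it was -0.37, and by day 12 it was again -0.37. All 10646 genes had medians of 0.06, -0.04, 0.02, 0.04 and -0.27 on the 5 days in turn. Below 0 were 70 members on day 1, 18 on day 2 and 49 on day 3, then 71 by day 6 and 67 by day 12. Large and small subunit members had like medians, -0.35 and -0.39 on day 6, and -0.40 and -0.36 on day 12.

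**Figure D1:**
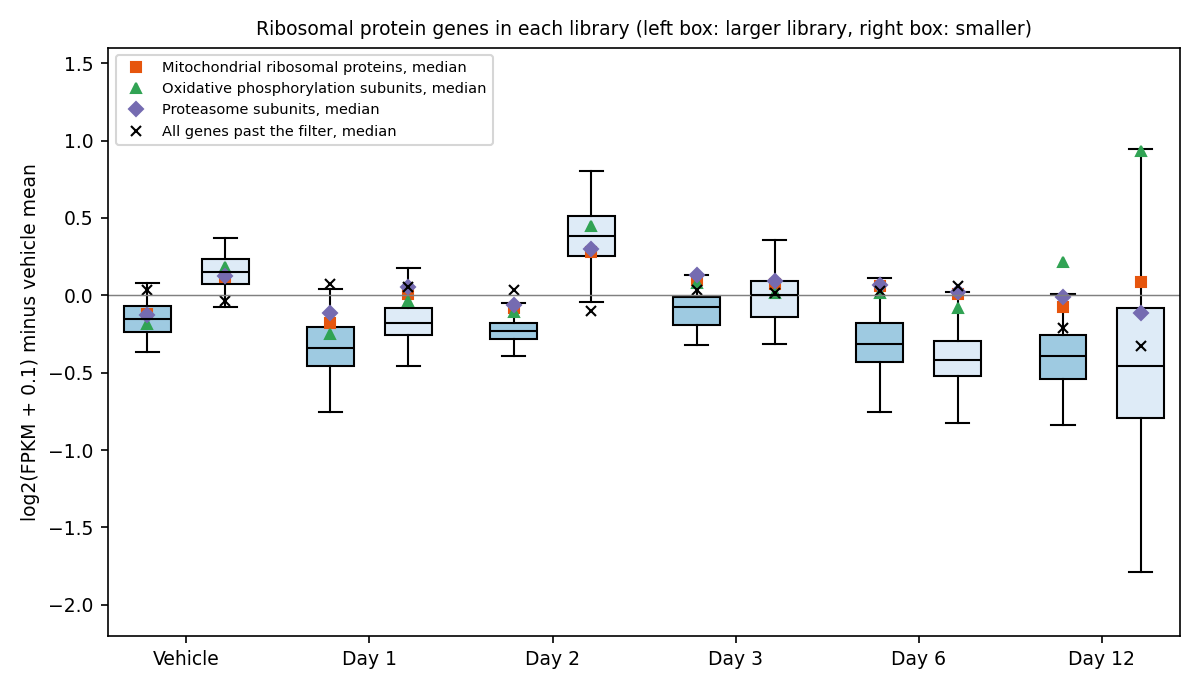
Log2(FPKM + 0.1) of the 77 ribosomal protein genes minus their vehicle mean in each of the 12 libraries (boxes: median and quartiles, with whiskers to the farthest gene within 1.5 times the interquartile range and genes beyond not drawn), with the medians of 3 other gene groups and of all genes as symbols. The boxes of both day 6 libraries lie below 0 while the symbols lie near 0, and the smaller libraries of vehicle and day 2 lie above their partners in the boxes and in the symbols of the 3 groups.

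Relative to the vehicle mean, the family medians were -0.15 and 0.15 in the larger and smaller vehicle library. They were -0.34 and -0.18 on day 1, -0.23 and 0.38 on day 2 and -0.08 and -0.00 on day 3, then -0.31 and -0.42 by day 6, and -0.39 and -0.46 by day 12. Days 1, 6 and 12 did not overlap vehicle, and days 2 and 3 did. A gap in the same direction between the vehicle libraries was present in 3 other gene groups, while all genes had medians of 0.03 and -0.03. Mitochondrial ribosomal proteins had medians of -0.12 and 0.12, oxidative phosphorylation subunits -0.18 and 0.18, and proteasome subunits -0.13 and 0.13. The members had the gap given above. Gene length moved with this gap, since the Spearman correlation of a gene's deviation with its length, over 3992 genes, was 0.48 in the larger and -0.48 in the smaller vehicle library, and 0.31 and -0.47 in the day 2 libraries. It was 0.45 and 0.24 in the day 1 libraries, -0.13 and -0.11 on day 3, -0.04 and 0.13 on day 6, and -0.28 and -0.34 on day 12. The day 1 libraries, like the larger vehicle library, thus had lower values in shorter genes. The part of length in the family medians was not tested. Each pair of vehicle values in this paragraph mirrors by construction, since both are deviations from their own mean.

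On days 1, 2 and 3 no member passed an adjusted p of 0.05. Among all genes limma called 0% as higher and 0% as lower on day 1, 0.263% and 0.0751% on day 2, and 0.855% and 0.16% on day 3. At an unadjusted p under 0.05 there were 2 members on day 1, among them Rps12, and none on days 2 and 3. Rps12, a small subunit protein among the most abundant, was at 1786 and 2528 FPKM in vehicle and at 1379 and 1476 FPKM on day 1, a log2 ratio of -0.57 ± 0.25 (SE, limma adjusted p = 0.91). Both its day 1 libraries lay below both vehicle libraries. This was the case for 37 of the 77 members on day 1, beside 14.2% of all genes.

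On day 6, the last day before a second dose, most log2 ratios of the family were below 0. Both libraries lay below both vehicle libraries for 65 of the 77 members, beside 21.1% of all genes. Past a fold of 1.5 were 11 members lower and 1 higher, beside 1.92% and 10.7% of all genes. By limma 1 member was called higher, the pseudogene Rps4l, and 0 lower, beside 5.52% and 0.611% of all genes. Rps4l passed the filter through its high values on this day and day 12. In all, 13 members including Rps4l had an unadjusted limma p under 0.05. So the median lay below 0, while no core gene passed the test.

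The 11 members past the fold on day 6 were Rps20, Rplp2, Rpl37a, Rps12, Rps3, Rpl36a, Rps15, Rpl41, Rps9, Rpl10a and Rps14. Rps20, a small subunit protein, was at 1007 and 1593 FPKM in the larger and smaller vehicle library and at 752 and 726 FPKM on day 6, a log2 ratio of -0.78 ± 0.30 (SE, limma adjusted p = 0.21). Rps3, at the mRNA entry of the small subunit, was at 589 and 955 FPKM in vehicle and 500 and 452 FPKM on day 6, a log2 ratio of -0.66 ± 0.28. In both genes the day 6 libraries were close together and the vehicle libraries far apart. In these 11 genes the smaller vehicle library was 1.24 to 1.67 times the larger, beside a median of 1.24 over the members. The smaller vehicle library decides their count: 0 members were past the fold lower without it and 30 without the larger vehicle library, and the family median was -0.21 and -0.55.

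The values of 3 further members were as follows. Rpl4, a large subunit protein, was at 783 and 864 FPKM in vehicle, 591 and 617 FPKM on day 6, and 543 and 451 FPKM on day 12. Its log2 ratio was -0.45 ± 0.14 on day 6 (SE, limma adjusted p = 0.13) and -0.73 ± 0.14 on day 12 (adjusted p = 0.003), so it was lower in all 4 libraries and passed the test on day 12. Rps19, the gene most often mutated in Diamond-Blackfan anemia, an inherited failure of red cell production in humans, was at 431 and 449.5 FPKM in vehicle and 441 and 426 FPKM on day 6. The groups overlapped, with a log2 ratio of -0.02 ± 0.20. Rps6, the target of the S6 kinases, was at 550 and 716 FPKM in vehicle, 474 and 452 FPKM on day 6 and 478 and 565 FPKM on day 12, with log2 ratios of -0.44 ± 0.19 and -0.27 ± 0.19, neither past the test.

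Of the other gene lists, 7 had day 6 medians near 0. The median log2 ratio was 0.04 for 77 mitochondrial ribosomal protein genes, -0.03 for 75 oxidative phosphorylation subunits and 0.04 for 34 proteasome subunits, with 0 called in each. It was -0.02 for 35 ribosome biogenesis factors, 0.01 for 11 RNA polymerase I genes, 0.01 for 17 other initiation factors and 0.02 for 15 growth regulators such as Mtor, again with 0 called. The 23 translation factors and other genes with TOP mRNAs had a median of -0.27 with 0 called. Among these TOP genes Eif4b, an initiation factor, was at 140 and 132 FPKM in vehicle, 93.7 and 97.9 FPKM on day 6 and 57.5 and 43.2 FPKM on day 12. Its log2 ratio was -0.51 ± 0.16 on day 6 (SE, limma adjusted p = 0.12) and -1.45 ± 0.16 on day 12 (adjusted p = 0.00019). Of 9 ribosomal protein genes outside the symbol rule, including Rpsa and Fau, the median was -0.37 on day 6, like that of the members. The median of a list is a description, since its genes share libraries, and no difference between lists was tested.

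Where markers of other cells differed from vehicle, it was mostly on days 6 and 12. On day 6, 5 of 5 T cell markers and 5 of 7 macrophage markers tested were called higher, with summed levels of 26.3 and 30.1 FPKM (T cell, 3.64 to 6.42 in vehicle and days 1 to 3) and 641 and 672 FPKM (macrophage, 146 to 293). On day 12, 8 of 8 adipocyte markers were higher, with sums of 1043 FPKM in the larger and 9566 FPKM in the smaller library, against 54.1 to 109.5 in vehicle and days 1 to 3 and 90.6 to 174.8 on day 6. Also called higher on day 12 were 5 of 5 T cell, 7 of 7 macrophage, 5 of 5 neutrophil and 2 of 2 erythroid markers, and neutrophil sums were 563 FPKM in the larger and 29.8 FPKM in the smaller library. So were 5 of 6 fibroblast markers, with 1 lower, 3 of 5 endothelial, 4 of 4 epithelial and 0 of 4 muscle markers tested. The 2 erythroid markers were called lower on days 2 and 3. Erythroid sums were 57.2 and 65.7 FPKM in vehicle, 3.85 and 8.70 FPKM on day 2 and 5.27 and 3.38 FPKM on day 3. The 7 epithelial markers summed to only 1.36 to 4.78 FPKM in vehicle and days 1 to 3, 1.498 to 2.76 FPKM on day 6, and 26.4 and 211 FPKM on day 12, with 1 of them at 0 in each library. Of 8 genes of stress and RNA quality, 2 were called higher and 2 lower on day 12, and they summed to 376 and 466 FPKM against 368 and 372 FPKM in vehicle. The part of these cells or of RNA quality in the ribosomal protein values was not tested.

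On day 12, after the second dose, 29 of the 77 members were called lower and 1, Rps4l, higher, beside 36.1% and 16.6% of all genes. That is 37.7% of the members called lower, close to the share of all genes in this fit. The members called lower comprised 20 of 46 large subunit and 9 of 31 small subunit genes. Past a fold of 1.5 were 25 members lower and 1 higher, beside 30.2% and 16.4% of all genes, and for 48 members both libraries lay below both vehicle libraries, beside 50% of all genes. The median gene was itself 0.21 and 0.33 log2 units below vehicle in the larger and smaller day 12 library. With each library recentred on its median gene, the members' median was -0.10, and 4 members were lower (Rpl10, Rpl31, Rpl4 and Rps7) and 1 higher, beside 20.4% and 23.5% of all genes.

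The number called on day 12 depended on single libraries. It was 6 without the smaller day 12 library, all of them among the 29, and 8 without the smaller vehicle library, also among the 29. It was 16 without the larger vehicle library, 15 of them among the 29, and 41 without either day 2 library, a number that holds all 29. With libraries weighted by their spread it was 7, beside 2081 of all 10646 genes. In each of these fits the number called lower over all genes moved the same way as that of the members.

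The spread among the members was widest on day 12, mainly in the smaller library. The interquartile range over the members was 0.71 log2 units in the smaller day 12 library and 0.28 in the larger, against 0.10 to 0.25 in the 10 other libraries. Over all genes it was 1.145 and 0.71 on day 12 and 0.21 to 0.49 in the others, so it was wider for all genes as well. Members that rose above the family and members that fell further are described next, after subtracting from each library its own median over the 77 members, which removes any scaling of a library.

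Relative to the family, 7 members were called higher and 6 lower on day 12, beside 19.4% and 2.9% of all genes, and 2 were higher and 0 lower on day 6, beside 6.74% and 0.0751%. The higher ones on day 12 were Rps4l, Rpl37a, Rpl39, Rps9, Rpl35a, Rps27l and Rps24, and the lower ones included Rpl31, Rps7, Rpl10, Rps10 and Rps4x. Among the higher ones, Rps4l passed the filter through its high values on the late days. Lengths ran from 394 to 941 bases (higher) and from 573 to 1291 bases (lower). The Spearman correlation with length over the members was -0.23 and -0.35 in the larger and smaller day 12 library. Of those with a RefSeq promoter, 5 of 6 higher and 2 of 5 lower members had the pyrimidine run at the start, beside 21 of 45 other members.

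Rpl37a, a zinc-binding protein of the large subunit, was at 631 and 1026 FPKM in vehicle, 522 and 455 FPKM on day 6, and 785 and 1551 FPKM on day 12. Rpl39, which lines the tunnel through which the new peptide leaves, was at 313 and 421 FPKM in vehicle, 274 and 260 FPKM on day 6, and 366 and 631 FPKM on day 12. Rps9, near the site where mRNA enters the small subunit, was at 856 and 1294 FPKM in vehicle, 702 and 660 FPKM on day 6, and 946 and 1584 FPKM on day 12. In all 3 genes day 6 lay below vehicle and day 12 above day 6 in every library, while day 12 overlapped vehicle.

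Set against vehicle their day 12 log2 ratios were 0.46 ± 0.36, 0.40 ± 0.30 and 0.22 ± 0.29 (SE), none past the test. Relative to the family they were 0.88 ± 0.24 (Rpl37a, limma adjusted p = 0.017), 0.83 ± 0.21 (Rpl39, adjusted p = 0.01) and 0.64 ± 0.20 (Rps9, adjusted p = 0.029). Each SE rests on 1 spread per gene pooled over the 6 groups. Weighting libraries by their spread gave those of day 12 the lowest weight, 0.22, and those of day 6 the highest, 2.82. No weighted fit was run relative to the family. The promoter windows printed above for Rpl39 and Rps9 hold a pyrimidine run and that of Rpl37a does not.

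Rpl31, which sits at the mouth of the peptide tunnel, was at 190 and 143 FPKM in vehicle, 207 and 189 FPKM on day 6, and 100.01 and 47.7 FPKM on day 12. Its log2 ratio on day 12 was -1.25 ± 0.32 (SE, limma adjusted p = 0.0098), the lowest of the 77, and -0.83 ± 0.28 relative to the family (adjusted p = 0.045). The call against vehicle was lost without the smaller day 12 library, at -0.72 (adjusted p = 0.053), and without the larger vehicle library, at -1.05 (adjusted p = 0.073), and held in the 18 other alternative fits. Both day 12 libraries were below all 10 others, and on days 1, 2, 3 and 6 its log2 ratio was above 0. Its row (mm9 chr1:39424696-39428755) overlaps that of Tbc1d8.

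**Figure D2:**
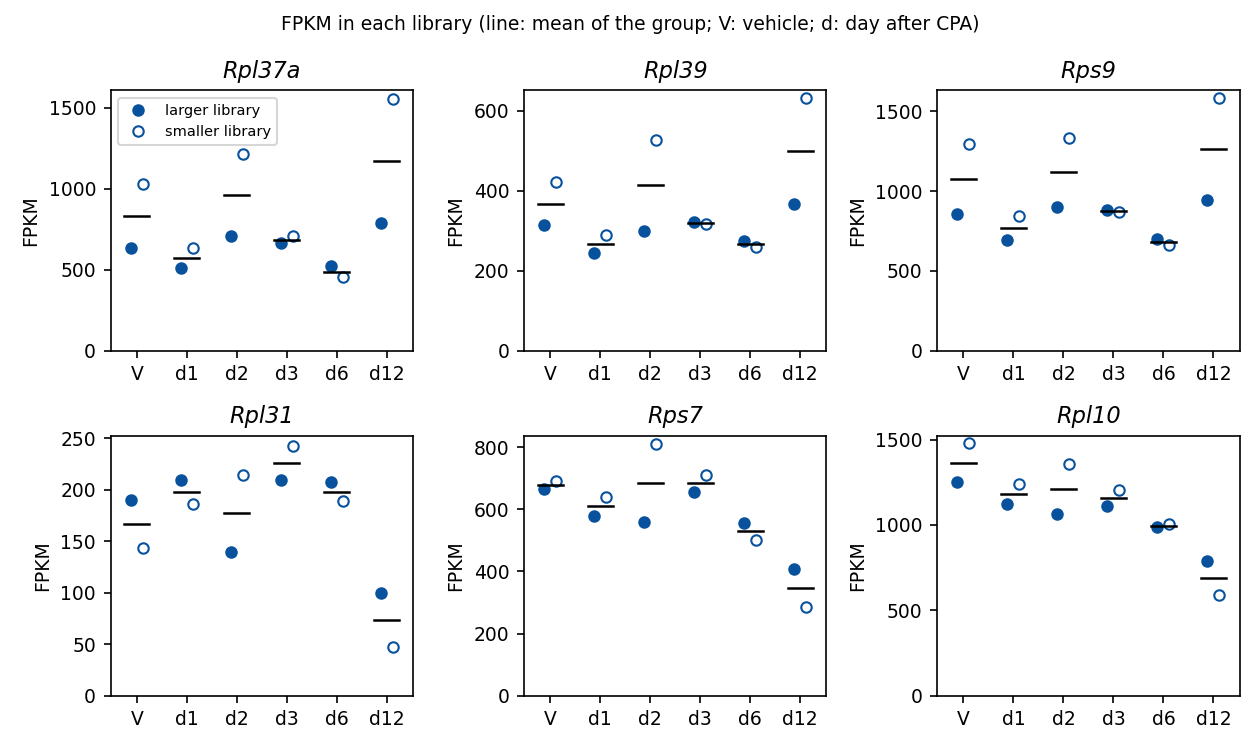
FPKM of 6 ribosomal protein genes in each of the 12 libraries by group (filled: larger library, open: smaller library, line: mean of the group). Rpl37a, Rpl39 and Rps9 (top) are lowest near days 1 and 6 and higher on day 12, whereas Rpl31, Rps7 and Rpl10 (bottom) have their lowest values on day 12.

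Rps7, a small subunit protein required for pre-rRNA processing, was at 666 and 692 FPKM in vehicle, 557 and 501 FPKM on day 6 and 406 and 284.5 FPKM on day 12. Rpl10, which joins the large subunit as a late step of its maturation, was at 1251 and 1479 FPKM in vehicle, 988 and 1005 FPKM on day 6 and 786 and 591 FPKM on day 12. In both genes the 2 day 12 libraries were the lowest of the 12. Against vehicle their day 12 log2 ratios were -0.998 ± 0.22 (Rps7, limma adjusted p = 0.0046) and -0.997 ± 0.20 (Rpl10, adjusted p = 0.0029). Both stayed under an adjusted p of 0.05 in all 20 alternative fits, with the lowest and highest adjusted p at 0.0014 and 0.034 for Rps7 and at 0.0016 and 0.025 for Rpl10.

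The ratio of Rpl37a to Rpl31 within a library, a pair picked for its extremes on day 12, does not depend on scaling. It was 3.33 and 7.16 in vehicle, 2.45 and 3.40 on day 1, 5.09 and 5.68 on day 2 and 3.17 and 2.92 on day 3, then 2.52 and 2.41 by day 6, and 7.85 and 32.5 by day 12. Both day 12 ratios were above the 10 others, the smaller library by far, and the vehicle libraries also differed. The smaller day 12 library carries much of this pattern: without it fewer members were called higher or lower relative to the family. Without the larger day 12 library more were called. Fewer were called without the larger vehicle library, or without a day 3 or a day 6 library. In each of these fits the counts over all genes moved the same way.

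**Figure D3:**
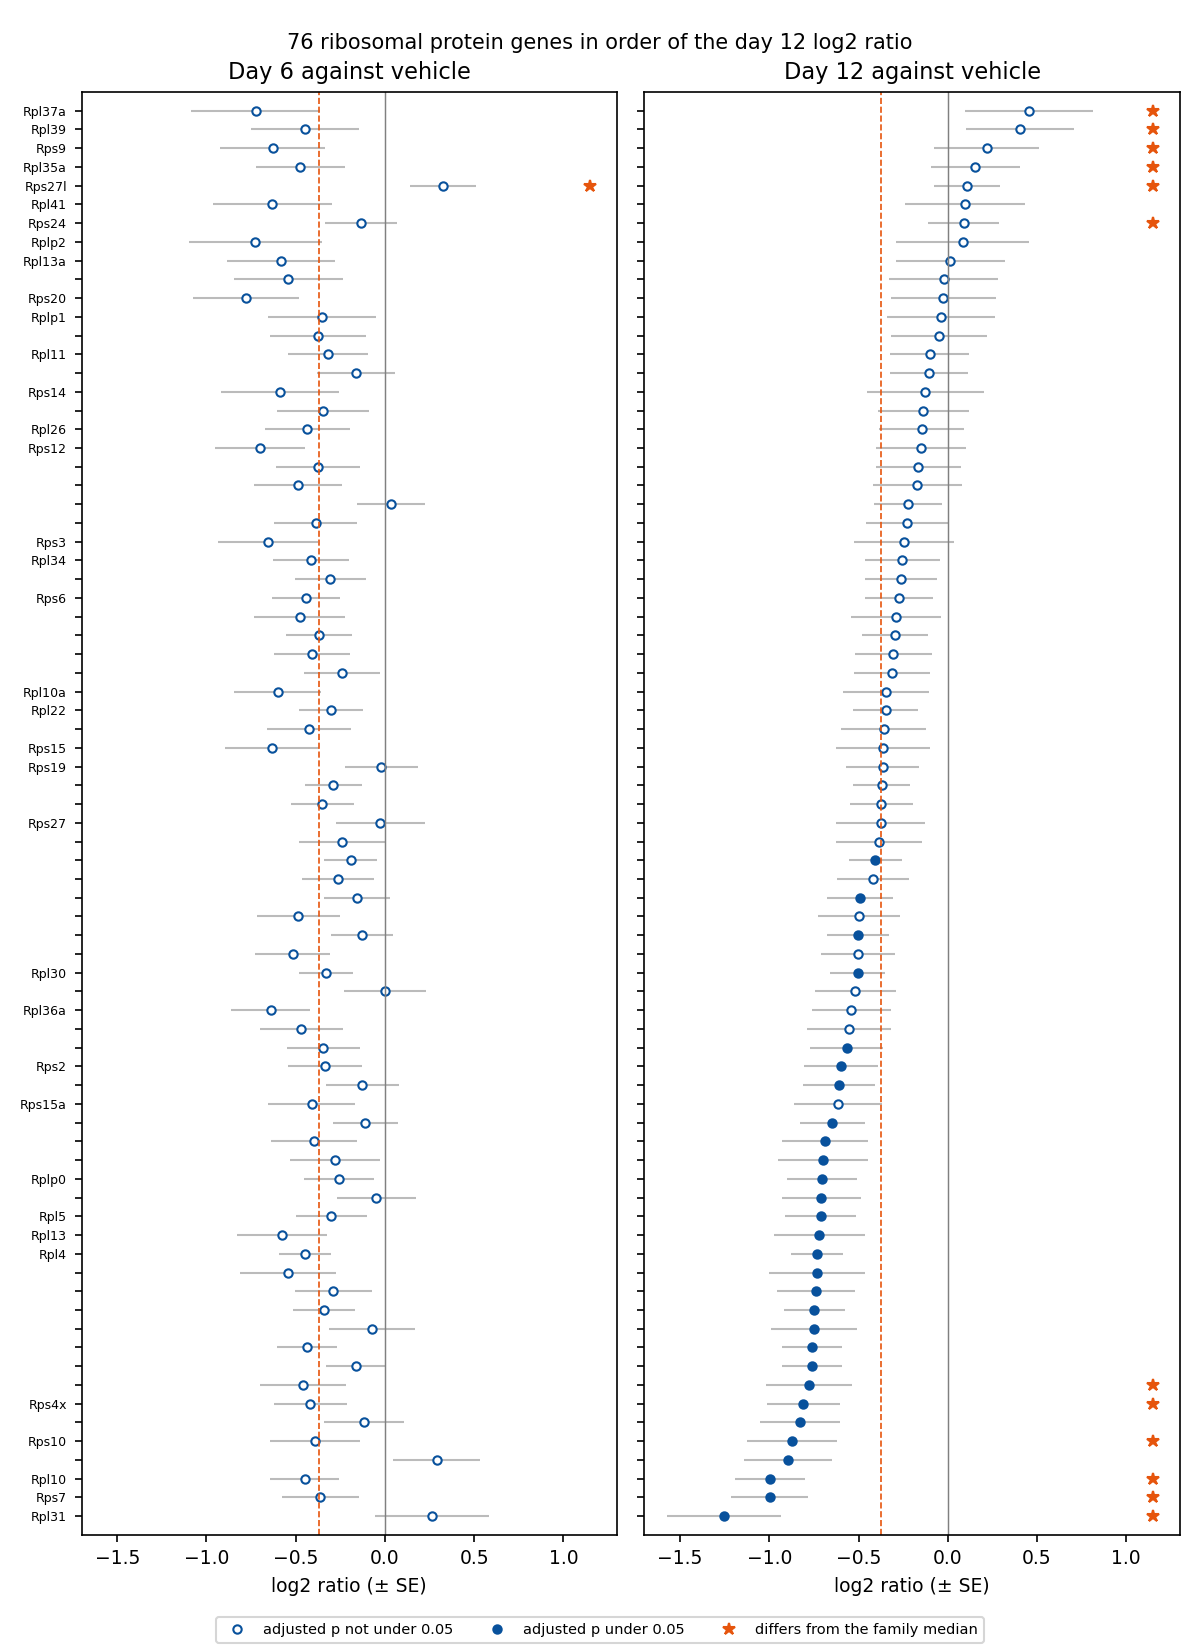
Log2 ratio against vehicle with its standard error for each ribosomal protein gene past the filter except Rps4l, on day 6 and day 12, in order of the day 12 value, with names for the genes described in the text (filled: limma adjusted p under 0.05, star: called relative to the family, dashed line: family median). On day 6 most points lie below 0 with none filled, and on day 12 they spread from -1.25 (Rpl31) to 0.46 (Rpl37a) with 29 filled.

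Set directly against day 6, 4 members were higher on day 12 (Rps4l, Rpl37a, Rpl39 and Rps9) and 9 lower, beside 10.6% and 36.3% of all genes. Of the 4, Rps4l passed the filter through its high values on the late days. The largest decrease was that of Rpl31, by 1.52 log2 units.

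The functional sets within the family behaved unevenly on day 12. In the P stalk, which recruits the translation factors to the ribosome, the base Rplp0 was at 926 and 1109 FPKM in vehicle and 694 and 557 FPKM on day 12, a log2 ratio of -0.71 ± 0.20 (SE, limma adjusted p = 0.015). Its partners did not follow: Rplp1 had a log2 ratio of -0.04 ± 0.30 and Rplp2 of 0.08 ± 0.37, the latter with 889 and 1805 FPKM on day 12 against 953 and 1499 FPKM in vehicle. In the 5S particle that can bind Mdm2, Rpl5 was at 444 and 471 FPKM in vehicle and 315 and 247 FPKM on day 12, a log2 ratio of -0.71 ± 0.20 (adjusted p = 0.014). Its partner Rpl11 was at 768 and 1029 FPKM in vehicle and 854 and 804 FPKM on day 12, a log2 ratio of -0.10 ± 0.22, with overlapping groups. Of the 22 genes of the family tied to Diamond-Blackfan anemia in humans, 8 were called lower on day 12, or 36.4% beside 36.1% of all genes, and 0 on day 6. The calls of Rplp0 and Rpl5 were lost in 5 and 6 of 20 alternative fits, among them those without the smaller vehicle or the smaller day 12 library. Both were also lost with each library recentred on its median gene. There the log2 ratios were -0.44 and -0.44 and the limma adjusted p was highest, at 0.143 and 0.136. The difference between the partners was not tested.

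Of the paralogs, Rps27l and Rps4l moved apart from their parents. Rps27l, a paralog of Rps27 and a p53 target gene, was at 101 and 101 FPKM in vehicle, 131 and 122 FPKM on day 6 and 120 and 98.1 FPKM on day 12. Relative to the family it was 0.69 ± 0.16 log2 units higher on day 6 (SE, limma adjusted p = 0.019) and 0.53 ± 0.16 on day 12 (adjusted p = 0.029), while against vehicle its log2 ratios of 0.33 ± 0.18 and 0.11 ± 0.18 did not pass. The day 6 call relative to the family was lost without the smaller vehicle library and without either day 6 library. The ratio of Rps27l to Rps27, which needs no scaling, was 0.26 and 0.28 in vehicle, 0.23 to 0.29 in the libraries of days 1 to 3, 0.34 and 0.36 on day 6, and 0.39 and 0.37 on day 12. All 4 late libraries were above the 8 earlier ones. The Rps27 row shares nearly all its reads with the overlapping row Rps27rt.

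Rps4l, a transcribed pseudogene of Rps4x in RefSeq (mm9 chr6:148303178-148304118), rose although it stayed a rare transcript. It was at 0.68 and 0.74 FPKM in vehicle, 0.69 to 1.05 FPKM in the libraries of days 1 to 3, 1.84 and 2.13 FPKM on day 6 and 4.61 and 9.31 FPKM on day 12, from 22 to 164 reads per library. Its log2 ratio was 1.37 ± 0.31 on day 6 (SE, limma adjusted p = 0.032) and 3.04 ± 0.31 on day 12 (adjusted p = 0.00012). It passed the filter through its high values on the late days, so its call is no support for the family, and reads of near-identical copies such as Rps4x may be split between rows. The parent Rps4x, an X-linked small subunit gene, was at 1111 and 1267 FPKM in vehicle and 774 and 593 FPKM on day 12. It was called lower (log2 ratio -0.81 ± 0.21, limma adjusted p = 0.0099). This call was lost in 5 of 20 alternative fits, among them those without the smaller vehicle or the smaller day 12 library. It was also lost with each library recentred on its median gene (log2 ratio -0.54, limma adjusted p = 0.088). The day 6 call of Rps4l was lost in 8 of 20, among them those without either vehicle or either day 6 library, with the highest adjusted p at 0.221. Rpl39l, a paralog known from testis, stayed under the filter, with 0 to 5 reads per library up to day 6 and 7 and 15 reads on day 12.

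**Figure D4:**
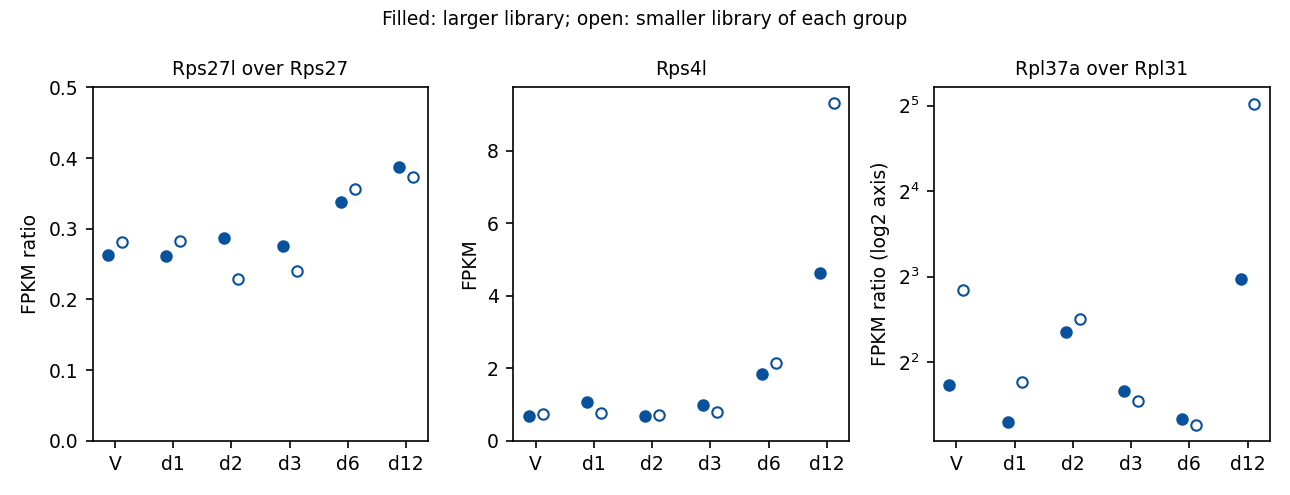
The ratio of Rps27l to Rps27 FPKM, the FPKM of Rps4l, and the ratio of Rpl37a to Rpl31 FPKM (log2 axis) in the 12 libraries by group (V: vehicle, d: day). The first is highest in the 4 libraries of days 6 and 12, the second climbs to 4.61 and 9.31 FPKM on day 12, and the third is highest on day 12 at 7.85 and 32.5.

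Outside the symbol rule, the paralog Rpl22l1 was at 75.6 and 93.3 FPKM in vehicle, 56.4 and 62.2 FPKM on day 6 and 91.7 and 162 FPKM on day 12, with a day 12 log2 ratio of 0.54 ± 0.25 (SE, limma adjusted p = 0.095). Rpl7l1 was called lower on day 12 at -0.57 ± 0.20 (adjusted p = 0.034).

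Most genes of the machinery that builds ribosomes were called lower on day 12, when the median over all genes was itself -0.27. Of 35 ribosome biogenesis factors 25 were called lower, with a median log2 ratio of -0.59, beside the same 36.1% of all genes. Gar1, a protein of the RNA-guided pseudouridylation complexes, was at 21.3 and 22.1 FPKM in vehicle, 19.1 and 20.03 FPKM on day 6 and 11.7 and 10.4 FPKM on day 12, a day 12 log2 ratio of -0.96 ± 0.12 (SE, limma adjusted p = 0.00025). Of 11 RNA polymerase I genes 7 were lower, among them the catalytic subunit gene Polr1a at -1.40 ± 0.23 (adjusted p = 0.0012), and of 23 TOP translation factors 14 were, with a median of -0.42. Proliferation genes were lower in 6 of 10. By contrast the medians were 0.00 for mitochondrial ribosomal proteins (5 higher, 8 lower), 0.56 for oxidative phosphorylation subunits (26 higher, 3 lower) and -0.06 for proteasome subunits (1 higher, 4 lower). The members had 37.7% called lower, against 71.4% of the biogenesis factors and 60.9% of the TOP factors, and the differences between lists were not tested. All these counts are without recentring on the median gene. Recentring took the members called lower from 29 to 4, and the other lists were not counted after it.

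Some rows of the family cannot be separated from their neighbors. The listed position of 32 members overlaps another row and 7 members have several positions. The rows Rpl26 and Gm15772 held equal reads in all 12 libraries, and those of Rpl34-ps1 and Gm12191 were at least 0.9956 times those of Rpl34 and 0.9996 times those of Rpl30. Reads of the Mir5121 row, inside Rpl13a, were 0.289 to 0.398 times those of Rpl13a. Without the members that overlap or have several positions the day 6 and day 12 medians kept their direction.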

How the data were processed

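PolyA RNA of 12 E0771 tumor pools, 2 per group, was sequenced from stranded libraries. Per the labels, the authors used TopHat2 for alignment to mm9, featureCounts for counting and edgeR for their comparisons. Versions and the treatment of reads that fit several places are not given in the sources used here. In the deposited table are FPKM per group and, for each comparison, the authors' ratio, fold change and p-value, which were not used. The vehicle values were identical in all 5 comparisons. What the library total behind FPKM counts is not given.

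Reads per library were recovered by finding, for each group, the totals at which every low gene is a whole number of reads in each of 2 libraries, then the length and reads that rebuild all 6 deposited FPKM values (largest difference 5.5e-11). No solution was found for 5 rows and more than 1 for 5. Recovery was checked on simulated reads, as was the limma step. The main fit was limma 3.58.1 (R 4.3.3, trend) on log2(FPKM + 0.1), 1 mean per group, genes with a mean of at least 1 FPKM and adjusted p under 0.05, with 6 residual degrees of freedom. The design had foreseen group values with no test and limma if values per library could be had, and the latter was used. Lone libraries in fits that leave 1 out were assumed to vary like the others. Alternatives were other pseudocounts (0.01, 1), scalings, filters (none, 10 FPKM), folds (25% and 100% above vehicle) and leaving out each library, and, chosen after seeing the data, library weights, the fit without day 12, group values as deposited, and values relative to the median member.

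The members and lists were chosen with earlier results of these data known. Named genes were the 5 highest in vehicle, the 4 highest and 4 lowest ratios per day, members past the fold where 12 or fewer, paralogs with their parents, and fixed examples. Rpl35a, Rps10, Rpl15, Rpl27, Rpl28, Rpl29, Rps25 and rows outside the family were named after their values were seen. 0 columns belonged to samples of other series. A few genes are not reported by name here. Protein sequences were not used here. Python 3.11.15, numpy 2.4.6, pandas 2.3.3 and matplotlib 3.10.9 were used.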

Additional observations from a re-analysis of the deposited data

Results flagged for a closer look

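The members below were flagged because their change on day 12 differed from that on day 6 under the same vehicle libraries, by limma's test of day 12 against day 6 (adjusted over 10646 genes). Higher on day 12 were Rps4l by 1.68 log2 units (adjusted p = 0.0047), Rpl37a by 1.18 (adjusted p = 0.025), Rpl39 by 0.85 (adjusted p = 0.044) and Rps9 by 0.85 (adjusted p = 0.039). Rps4l passed the filter through its high values on the late days, so its call is no support for the family. Lower were Rpl31 at -1.52 (adjusted p = 0.0067), Rpl15 at -0.71 (adjusted p = 0.028), Rps25 at -0.68 (adjusted p = 0.043), Rpl27 at -0.66 (adjusted p = 0.036), Rps7 at -0.64 (adjusted p = 0.037), Rpl28 at -0.60 (adjusted p = 0.019), Rpl10 at -0.55 (adjusted p = 0.043) and Rpl29 at -0.54 (adjusted p = 0.036). In each of these genes both day 12 libraries lay on the same side of both day 6 libraries. With each library recentred on its median gene, or with the trimmed mean, 6 members were higher and 2 lower, so most of the lower calls ended. Among all 10646 genes 1980 were higher and 1711 lower after recentring. Fewer members were called in either direction without the smaller day 12 library, or without a library of day 1, 3 or 6. Library weights also gave fewer. More were called without the larger day 12 library or without either day 2 library. In these fits the counts over all genes moved the same way. Groups of 2 libraries are too small for a test of single outlying libraries.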

How the results depend on the processing

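The family medians kept their direction on days 1, 6 and 12 under every alternative except values relative to the median member, where they lie near 0 by construction (0.03 on day 1 and 0.05 on day 12). For day 12, centring each library at its median gene moved the median from -0.37 to -0.10 and the trimmed mean of log ratios to -0.11. Leaving out 1 library at a time gave medians from -0.38 to -0.11 on day 1, -0.23 to 0.38 on day 2 and -0.20 to 0.10 on day 3, then -0.55 to -0.21 by day 6 and -0.55 to -0.27 by day 12.

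Members past the fold, lower, numbered 2 on day 1 after recentring or the trimmed mean and 1 from the deposited group values, against 0. A minimum of 25% gave 30 on day 1, 47 on day 6 and 45 on day 12, and a fold of 2 gave 0 on day 6 and 1 on day 12. The fold counts of this paragraph are of members alone, with no share of all genes beside them. Past the fold, higher, were 3 on day 3 at a minimum of 25%, where there were 0. On day 6 there were 2 with no filter or at 25%, and 0 at a mean of at least 10 FPKM. On day 12 there were 3 after recentring, the trimmed mean, with no filter or at 25%, and 0 at 10 FPKM. Lower on day 12 were 5 after recentring or the trimmed mean. Leaving out 1 library gave 0 to 22 lower on day 1, 0 to 2 on day 3, 0 to 30 on day 6 and 14 to 33 on day 12, and higher 0 to 10 on day 2, 0 to 1 on day 3, 1 on day 6 and 1 to 5 on day 12. On day 1 there were 0 higher and on day 2 there were 0 lower without any library.

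Called higher by limma on day 6 were 0 with a pseudocount of 1, no filter or 10 FPKM. Over all genes 603 of 10646, 671 of 20176 and 200 of 3992 were higher in these fits. With library weights 5 members were lower on day 6, beside 238 of all 10646 genes. Called lower on day 12 were 4 after recentring or the trimmed mean, beside 2174 and 2221 of all 10646 genes. With no filter 19 were lower and 2 higher, beside 3860 and 4378 of 20176. With weights 7 were lower, beside 2081 of 10646, and at 10 FPKM 0 were higher, beside 588 of 3992. Leaving out 1 library gave 0 calls on days 1 to 3, 0 to 1 higher and 0 to 1 lower on day 6, and 1 to 3 higher and 6 to 41 lower on day 12. Relative to the family it gave 0 to 3 higher and 0 to 2 lower on day 6, and 2 to 21 higher and 1 to 16 lower on day 12.

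Between days 12 and 6, 1 member was higher with no filter, beside 2658 of all 20176 genes, and with weights, beside 600 of all 10646. Lower were 2 after recentring, the trimmed mean or weights, beside 1711, 1746 and 2208 of all 10646 genes. With the upper quartile 4 were lower, beside 2988 of 10646, and with no filter 4, beside 3734 of 20176. The counts also changed when 1 library was left out. The cause of these changes was not tested.

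The share of summed FPKM without the 100 highest other genes was 30.4% in vehicle, 26.5% on day 1, 31.4% on day 2 and 28.2% on day 3, then 24.3% by day 6 and 25.1% by day 12, and without the marker lists 19.1% on day 12. Single libraries gave 22.7% to 26.05%, 21.04% to 22.3%, 21.9% to 28.3%, 22.3% to 23.4%, 18.9% to 19.7% and 18.2% to 18.9%. No paired analysis was possible because the recovered libraries carry no pool number. The vehicle value of each comparison was the same, so that alternative gave no other value. With 2 libraries a group, differences within a group's spread were not detectable.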
